A study of Mus musculus with 24 samples.

Results

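The chemokine ligands were described as every gene of the count table named Ccl, Cxcl, Cx3cl or Xcl with a number and, where present, a letter from a to d. This rule on names took 40 of the 55418 genes of the table, 25 of the CC class, 13 of the CXC class, 1 of the CX3C class (Cx3cl1) and 1 of the C class (Xcl1). It leaves out Pf4 and Ppbp, which are CXC chemokines under other names. Levels are in CPM, counts scaled to the total of each library, and 11 of the 40 ligands lay above 0.5 CPM in every one of 23 cords. With both sexes together, no ligand was called between paclitaxel and vehicle or between knockout and wild-type. Cx3cl1 was called in the interaction of sex and treatment and in males, calls that were lost when some single cords were left out. In these contrasts the groups compared also follow the order in which the libraries are numbered. The highest values of several induced ligands came from single animals.

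RNA was taken from the L4 to L6 spinal cord of C57BL/6J mice, aged 8 to 10 weeks at the start, and gave 24 libraries, 3 in each of 8 groups that crossed genotype, treatment and sex. Knockout mice lacked Chrna7, which encodes the nicotinic receptor subunit alpha7, in myeloid cells; the Cre driver is not given in the labels, and other cells keep the gene. Paclitaxel, a taxane used against cancer that can cause painful neuropathy, was injected 4 times, on alternate days, at a dose of 1 mg per kg. The drug was dissolved in Kolliphor, ethanol and water, the other mice received vehicle, and RNA was extracted on day 7 after the first injection in all groups.

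Chemokines are small secreted proteins that steer leukocytes through G protein-coupled receptors, and their classes are named for the spacing of their first cysteines. Some are made constantly in healthy tissue, such as Cxcl12 and Cx3cl1, and others are induced in inflammation through NF-kappaB and interferon signalling, such as Ccl2 and Cxcl10. In the spinal cord Cx3cl1 (fractalkine) is a neuronal ligand that is tethered to the membrane and shed by proteases, and its receptor Cx3cr1 sits on microglia. Ccl2, Cx3cl1 and Cxcl1 have been studied in rodents as signals between neurons and glia in neuropathic pain.

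Libraries held 88812295 to 112158154 counts. In the numbering of the libraries, all female vehicle and male paclitaxel libraries came before all male vehicle and female paclitaxel libraries. Within each sex, treatment therefore cannot be told apart from this order, and neither can the interaction of sex and treatment. The third wild-type female paclitaxel library resembled sensory ganglion rather than cord: the 10 ganglion genes summed to 5580 CPM there and to 120 to 173 CPM in the other 23 libraries. The 10 cord neuron genes summed to 2375 CPM there and to 4809 to 5404 CPM in the others. That library, called ganglion-like here, was left out of the groups, so that wild-type female paclitaxel held 2 cords. Chrna7 averaged 12.6 ± 1.63 CPM in knockout cords and 13.6 ± 1.84 CPM in wild-type cords (SD, n = 12 and 11). The ranges overlapped, and whole-cord RNA does not check a deletion restricted to myeloid cells. Among the 23 cords, wild-type male vehicle replicate 1 stood apart in the inflammatory ligands, and values are given with and without it where it matters.

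The abundance of the family was concentrated in few genes. Cx3cl1 had the highest CPM, 136 to 196 over the 23 cords with a median of 162. Cxcl12, a homeostatic ligand of Cxcr4 and Ackr3, lay at 53.3 to 145 CPM with a median of 74.1. Cxcl14, a homeostatic CXC ligand, had a median of 49.9 CPM, and Ccl27a, a ligand of Ccr10 known from skin, had a median of 28.3 CPM. These 4 genes held 84.1 to 92.7% of the summed CPM of all ligands in each cord. Per kilobase of exon, which allows levels of different genes to be compared, the order of medians was Cx3cl1 at 41.3, Cxcl14 at 27.3, Ccl27a at 11.9 and Cxcl12 at 9.06 CPM per kb.

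The other ligands above 0.5 CPM in every cord were less abundant. Ccl25, a ligand of Ccr9 known from gut and thymus, had a median of 11.9 CPM. Cxcl16, the membrane-bound ligand of Cxcr6, had 4.47 CPM, and the rodent myeloid ligands Ccl6 and Ccl9, which act on Ccr1, had 3.62 and 2.27 CPM. Ccl28, a mucosal ligand of Ccr10, had 2.93 CPM, Ccl11 (eotaxin, a ligand of Ccr3) had 1.195 CPM and Cxcl5, a neutrophil attractant acting on Cxcr2, had 0.883 CPM. The share of ligands above 0.5 CPM in every cord can be read against the 29.3% of all genes of the table that met the same minimum.

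Another 15 ligands were above 0.5 CPM in some cords and 14 in none. Just above the minimum were Cxcl5 and Ccl11, with lowest values of 0.640 and 0.540 CPM. Just below it were Ccl12, a mouse ligand of Ccr2, which passed in 19 cords, and Cxcl10, the interferon-induced ligand of Cxcr3, which passed in 17. Ccl3, a macrophage ligand of Ccr1, lay at 0.160 to 0.894 CPM with a median of 0.494 and passed in 11 cords. Cxcl2, a neutrophil attractant, had at most 0.107 CPM and was at 0 in 9 cords. Xcl1, which attracts dendritic cells that carry Xcr1, had at most 0.159 CPM and was at 0 in 4 cords. Ccl21b, Ccl21c, Ccl27 and Cxcl15 had no count in any of the 24 libraries; 3 counts correspond to 0.0267 to 0.0338 CPM, the limit that a count of 0 allows. Ccl21a, Ccl21b, Ccl21c, Ccl27, Ccl27a and Ccl27b have near-identical copies whose reads the counting could discard, so their values are uncertain.

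**Figure D1:**
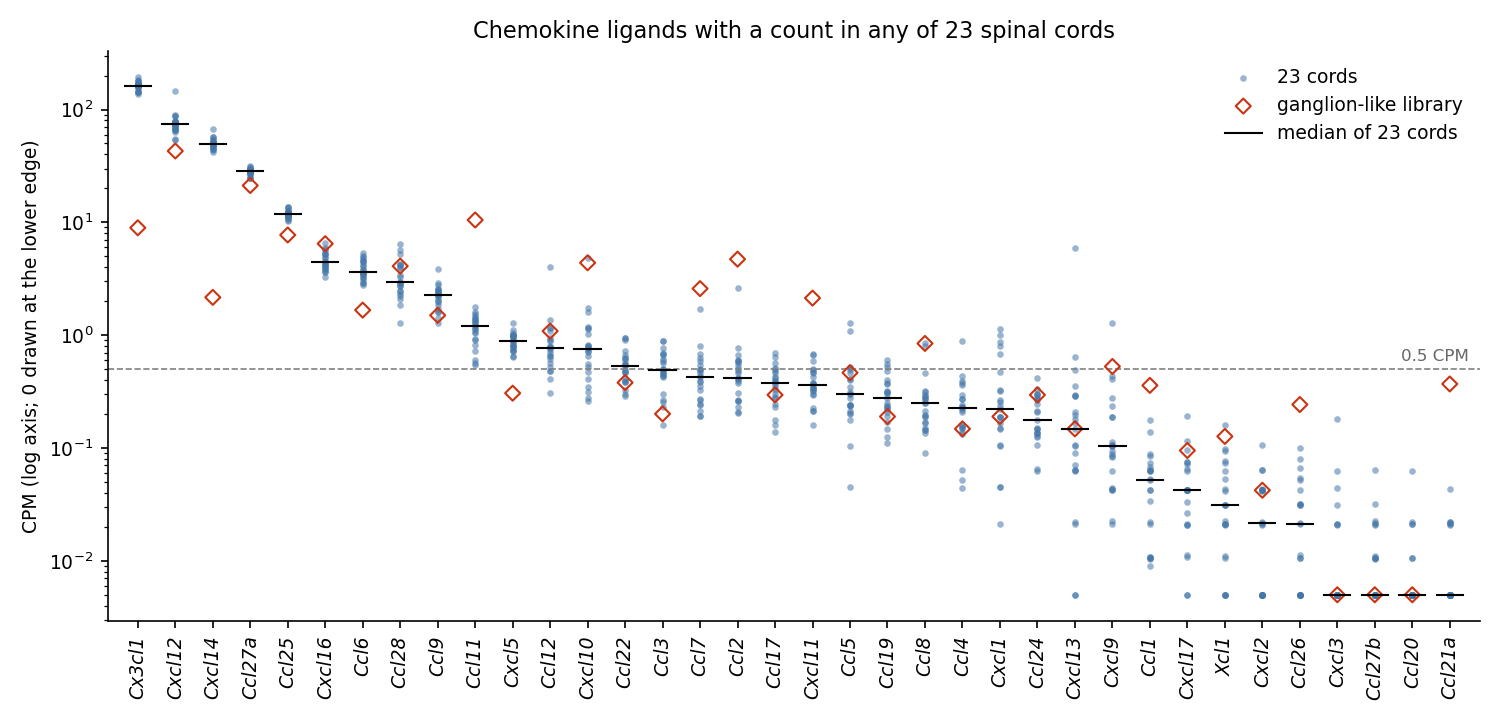
CPM on a log axis for each chemokine ligand with a count in any of the 23 cords. Blue points are cords, black bars their median and red diamonds the ganglion-like library; Cx3cl1 has the highest median at 162 CPM, and the dashed line marks 0.5 CPM.

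Several ligands sit together in the genome (GRCm38, Ensembl release 96). Ccl22, Cx3cl1 and Ccl17 lie next to each other at chr8:94745590-94751699, chr8:94772009-94782427 and chr8:94810453-94812036, yet their medians were 0.534, 162 and 0.380 CPM. Ccl2, Ccl7, Ccl11, Ccl12, Ccl8 and Ccl1 lie between bases 82035571 and 82305690 of chromosome 11. Ccl5, Ccl9, Ccl6, Ccl3 and Ccl4 lie between bases 83525778 and 83664683 of the same chromosome. Reads were counted without strand, and exons of Ccl25, Cxcl16, Cxcl10, Cxcl11, Ccl27a and Xcl1 overlap exons of another gene on the opposite strand. Reads in the shared bases of these pairs cannot be told apart, and the counting could discard them.

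Promoter windows from RefSeq (GRCm38.p6), 250 bases before to 50 bases after the start, were found for 27 of the 40 ligands. The windows below are shown for the pair with the highest CPM, Cx3cl1 and Cxcl12, and for Cxcl10 and Cxcl13, which had the highest values relative to the other cords in 1 animal. Cx3cl1 is at chr8:94771930-94772229 and Cxcl12 at chr6:117168285-117168584, both on the plus strand. Cxcl10 is at chr5:92348840-92349139 on the minus strand and Cxcl13 at chr5:95956689-95956988 on the plus strand. Capitals mark matches to the core of the interferon-stimulated response element (GAAA, any 2 bases, GAAA) and to the NF-kappaB consensus, each searched on both strands.
Cx3cl1: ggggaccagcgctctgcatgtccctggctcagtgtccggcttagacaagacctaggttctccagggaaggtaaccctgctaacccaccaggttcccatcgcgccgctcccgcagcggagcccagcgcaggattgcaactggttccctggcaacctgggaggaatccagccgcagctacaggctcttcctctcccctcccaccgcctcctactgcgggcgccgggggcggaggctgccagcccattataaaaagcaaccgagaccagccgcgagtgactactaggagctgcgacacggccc
Cxcl12: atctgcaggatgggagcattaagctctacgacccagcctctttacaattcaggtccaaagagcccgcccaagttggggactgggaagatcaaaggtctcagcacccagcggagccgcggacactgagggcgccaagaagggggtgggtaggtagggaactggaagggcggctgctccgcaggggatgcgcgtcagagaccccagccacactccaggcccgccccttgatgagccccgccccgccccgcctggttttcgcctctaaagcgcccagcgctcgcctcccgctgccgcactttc
Cxcl10: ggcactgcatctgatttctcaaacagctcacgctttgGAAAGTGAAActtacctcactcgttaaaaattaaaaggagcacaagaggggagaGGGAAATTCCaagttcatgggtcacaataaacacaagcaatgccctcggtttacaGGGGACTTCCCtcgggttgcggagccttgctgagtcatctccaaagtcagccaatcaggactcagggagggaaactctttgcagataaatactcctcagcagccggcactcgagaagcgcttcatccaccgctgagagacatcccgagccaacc
Cxcl13: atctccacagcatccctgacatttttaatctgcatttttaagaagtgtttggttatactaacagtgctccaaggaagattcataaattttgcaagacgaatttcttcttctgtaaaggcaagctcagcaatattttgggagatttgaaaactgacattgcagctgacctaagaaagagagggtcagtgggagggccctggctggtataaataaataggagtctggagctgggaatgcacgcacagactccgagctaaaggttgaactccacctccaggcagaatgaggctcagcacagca

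The Cxcl10 window held 1 match to the interferon element and 3 to the NF-kappaB consensus, of which the last 2 overlap by all but 1 base. Of 32851 promoters in the table, 3.44% held the interferon element, 8.46% the NF-kappaB consensus and 0.247% both. Among the 27 ligands with a window, 3 held the interferon element (Ccl19, Cxcl10 and Cxcl14) and 8 the NF-kappaB consensus, among them Cxcl1, Cxcl2 and Cxcl3. The windows of Cx3cl1, Cxcl12 and Cxcl13 held neither. Cx3cl1 and Cxcl12 had 19 and 20 CpG dinucleotides in their windows and Cxcl10 and Cxcl13 had 10 and 3, where the median over all promoters was 7.

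The ligands differed widely in how far animals of 1 group varied. The SD of log2 CPM within groups was 0.0706 for Ccl25, 0.0776 for Ccl27a and 0.0946 for Cx3cl1, the most even ligands. It was 0.736, 0.749 and 0.767 for Ccl2, Ccl12 and Cxcl10, and 1.02 for Cxcl9, an interferon-induced ligand of Cxcr3. Cxcl13, the B cell attractant, had the widest spread at 1.64 (1.12 without wild-type male vehicle replicate 1), with 0 to 5.98 CPM and a median of 0.147. Of the 40 ligands, 29 passed the filter on low counts and were tested; the other 11 had too few counts.

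Paclitaxel against vehicle called none of the 29 ligands (edgeR, adjusted p under 0.05 over all genes), where 0.0197% of all tested genes were called. At an unadjusted p under 0.05 there were 3 ligands, against 10.2% of all genes, and the alternatives with DESeq2 and limma voom also called 0. By fitted sign, 10 ligands were higher with paclitaxel and 19 lower, with a median log2 fold change of -0.19, against 0.01 over all genes. Without wild-type male vehicle replicate 1 these were 13 higher and 16 lower, with a median of -0.09. In bulk RNA, fewer cells of a type and less RNA per cell cannot be told apart.

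The abundant ligands were close to equal. Cx3cl1 averaged 166 ± 15.4 CPM in paclitaxel cords and 160 ± 12.8 CPM in vehicle cords (SD, n = 11 and 12), with a fitted log2 difference of 0.04 (SE 0.04, edgeR adjusted p = 0.790). Cxcl12 averaged 78.4 ± 22.6 CPM with paclitaxel and 73.4 ± 11.99 CPM with vehicle, with a fitted log2 difference of 0.08 (SE 0.11, edgeR adjusted p = 0.850). Without knockout female paclitaxel replicate 1, which had 145 CPM, that value was -0.03. Cxcl14, Ccl27a and Ccl25 had log2 fold changes of -0.03, 0.06 and 0.02, with SEs from 0.03 to 0.05. Of the moderate ligands, Cxcl16 had -0.15, Ccl28 -0.22, Ccl6 0.04, Ccl9 -0.05 and Cxcl5 0.20, with edgeR adjusted p values from 0.558 to 0.945.

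Ccl11 had the smallest p of the family. It lay at 0.540 to 1.605 CPM (median 0.924) in 11 paclitaxel cords and at 0.604 to 1.77 CPM (median 1.32) in 12 vehicle cords. The groups overlapped, and 8 of 11 paclitaxel cords lay below the vehicle mean. The log2 fold change was -0.37 (SE 0.16, edgeR adjusted p = 0.426). It was 0.19 with the ganglion-like library included. Ccl17, a ligand of Ccr4, averaged 0.448 ± 0.115 CPM with paclitaxel and 0.315 ± 0.148 CPM with vehicle, which edgeR fitted as a log2 difference of 0.47 (SE 0.21, adjusted p = 0.451).

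**Figure D2:**
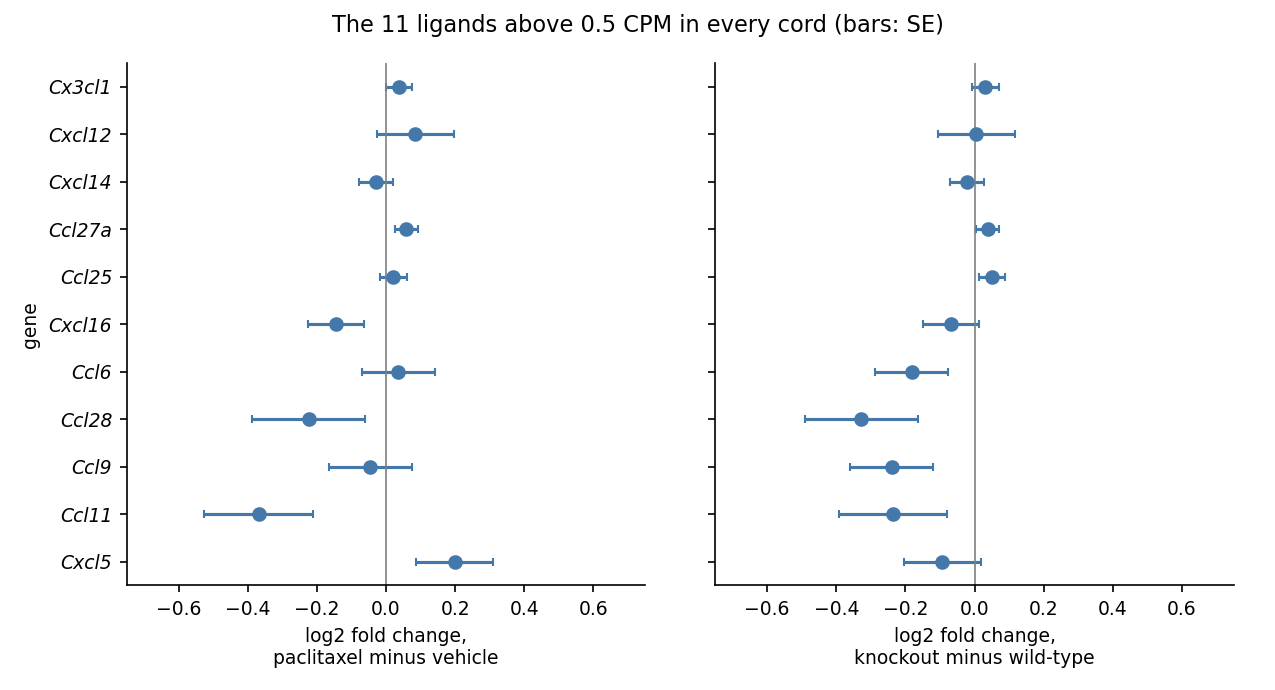
Log2 fold change with its SE (edgeR, 23 libraries) for the 11 ligands above 0.5 CPM in every cord, paclitaxel minus vehicle on the left and knockout minus wild-type on the right. The values run from -0.37 for Ccl11 to 0.20 for Cxcl5 on the left and from -0.33 for Ccl28 to 0.05 for Ccl25 on the right; no ligand was called.

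The ligands best known from injured nerve tissue were low in both groups. Ccl2, the main ligand of Ccr2 on monocytes, lay at 0.202 to 0.606 CPM (median 0.406) in paclitaxel cords and at 0.231 to 2.59 CPM (median 0.459) in vehicle cords. Its log2 fold change was -0.70 (SE 0.33, edgeR adjusted p = 0.490), and -0.27 without wild-type male vehicle replicate 1. The same cord decided the sizes for the other 6 ligands of this kind. With it, the log2 fold changes were -0.55 for Ccl5, -0.50 for Ccl7, -0.38 for Ccl12, -0.72 for Cxcl1, -0.50 for Cxcl10 and -0.87 for Cxcl13. Without it they were -0.20, -0.23, 0.05, -0.29, -0.13 and 0.28 in that order, and none of them was called either way (edgeR adjusted p from 0.490 to 0.783 with it and from 0.693 to 0.954 without).

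Knockout against wild-type called none of the 29 ligands, against 0.0118% of all tested genes, and 0 had an unadjusted p under 0.05, against 3.36% of all genes. DESeq2 and limma voom also called 0. By sign, 9 ligands were higher in the knockout and 20 lower, with a median log2 fold change of -0.05; without wild-type male vehicle replicate 1 there were 14 higher and 15 lower, with a median of -0.01. Cx3cl1 averaged 164 ± 12.6 CPM in knockout cords and 162 ± 16.3 CPM in wild-type cords (SD, n = 12 and 11). Cxcl12 averaged 76.3 ± 23.4 CPM in knockout cords and 75.2 ± 8.81 CPM in wild-type cords. The log2 fold changes of these ligands were 0.03 (SE 0.04) and 0.00 (SE 0.11), both with an edgeR adjusted p of 1.00.

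Ccl28 and Ccl9 had the most negative log2 fold changes among the 11 ligands above 0.5 CPM in every cord. Ccl28 lay at 1.27 to 4.21 CPM (median 2.80) in knockout cords and at 2.21 to 6.46 CPM (median 2.95) in wild-type cords, a log2 fold change of -0.33 (SE 0.16). Ccl9 lay at 1.27 to 2.55 CPM (median 2.15) in knockout cords and at 1.41 to 3.88 CPM (median 2.39) in wild-type cords, a log2 fold change of -0.24 (SE 0.12), which was -0.14 without wild-type male vehicle replicate 1. The ranges overlapped for both ligands, and edgeR gave each an adjusted p of 1.00.

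Within single treatments, knockout against wild-type again called 0 ligands (edgeR; DESeq2 and limma voom also 0), where 0.00788% of genes were called under vehicle and 0.00394% under paclitaxel. The smallest p under vehicle was that of Ccl9, at 1.91 ± 0.446 CPM in knockout cords and 2.67 ± 0.798 CPM in wild-type cords (SD, n = 6 each). The ranges overlapped, and the log2 fold change was -0.51 (SE 0.16, edgeR adjusted p = 0.911). It was -0.32 without wild-type male vehicle replicate 1, the cord with the highest Ccl9, at an edgeR adjusted p of 0.982. Under paclitaxel it was Cx3cl1, at 171 ± 7.37 CPM in knockout cords and 161 ± 21.3 CPM in wild-type cords (SD, n = 6 and 5), a log2 difference of 0.13 (SE 0.06, edgeR adjusted p = 0.790). At an unadjusted p under 0.05 there were 3 ligands under vehicle and 2 under paclitaxel, against 5.2 and 6.18% of all genes. Without wild-type male vehicle replicate 1 there were 5 and 3, against 4.09 and 6% of all genes, and under vehicle 18 ligands were higher in the knockout and 11 lower, where with it these were 11 and 18.

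Paclitaxel against vehicle within a genotype called 0 ligands in each (edgeR; DESeq2 and limma voom also 0), where 0.0236% of genes were called in the knockout and 0.0% in the wild-type. In the knockout the smallest p was that of Cxcl9, at 0.021 to 0.112 CPM (median 0.083) with paclitaxel and 0.043 to 1.29 CPM (median 0.147) with vehicle. Its log2 fold change was -1.88 (SE 0.73, edgeR adjusted p = 0.336), and -1.20 without knockout female vehicle replicate 2, the cord at 1.29 CPM. In the wild-type it was Ccl3, at 0.571 to 0.700 CPM in 5 paclitaxel cords and 0.160 to 0.890 CPM in 6 vehicle cords, a log2 difference of 0.79 (SE 0.23, edgeR adjusted p = 0.528). The 3 wild-type female vehicle cords, at 0.160, 0.230 and 0.257 CPM, had the lowest Ccl3 of the 23 cords. At an unadjusted p under 0.05 there were 6 ligands in the knockout and 4 in the wild-type, against 11.3 and 7.97% of all genes. Without wild-type male vehicle replicate 1 there were 10 and 6, against 11 and 6.73% of all genes. Without knockout female vehicle replicate 2 there was 1 in the knockout, against 8.49%. The signs in the wild-type, 10 higher and 19 lower with paclitaxel, became 20 higher and 9 lower without wild-type male vehicle replicate 1.

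The interaction of genotype and treatment (the paclitaxel response in knockout cords less the one in wild-type cords) called none of the ligands or of all genes (0.0%). DESeq2 and limma voom called 0 ligands too. At an unadjusted p under 0.05 there were 7 of 29 ligands, against 8.41% of all genes. There were 11 without wild-type male vehicle replicate 1, against 7.7% of all genes, and 3 to 11 over the fits that left out 1 library. Ccl3 had the smallest p. Its mean was 0.484 CPM with paclitaxel and 0.547 CPM with vehicle in knockout cords, and 0.631 CPM with paclitaxel and 0.412 CPM with vehicle in wild-type cords, an interaction of -1.02 (log2, SE 0.32, edgeR adjusted p = 0.512). The other 6 were Ccl25, Cx3cl1, Cxcl14, Ccl22, Cxcl12 and Ccl9, with edgeR adjusted p values from 0.516 to 0.563.

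Males against females called 0 ligands (edgeR; DESeq2 and limma voom also 0), against 0.918% of all genes, and 4 ligands had an unadjusted p under 0.05, against 13.2%. Ccl3 lay at 0.441 to 0.894 CPM (median 0.504) in 12 males and at 0.160 to 0.773 CPM (median 0.426) in 11 females, and all 12 males lay above the female mean. The log2 fold change was 0.49 (SE 0.16, edgeR adjusted p = 0.144). Ccl28 lay at 1.27 to 4.21 CPM (median 2.79) in males and at 2.09 to 6.46 CPM (median 4.03) in females, and 11 of 12 males lay below the female mean. Its log2 fold change was -0.51 (SE 0.16, edgeR adjusted p = 0.162), and -0.62 with an edgeR adjusted p of 0.0307 without knockout male vehicle replicate 3. The highest Ccl28, 6.46 CPM, came from wild-type female vehicle replicate 1. That cord also had the highest sums of 3 lists. They were the Schwann cell genes of roots (490 CPM, against 250 to 453 CPM in the others), the meningeal fibroblast genes (252 CPM, against 145 to 237 CPM) and the astrocyte genes (8069 CPM, against 7055 to 7908 CPM). Wild-type female vehicle replicate 3, next in Ccl28 at 5.64 CPM, had 266 CPM of the Schwann cell genes and 202 CPM of the fibroblast genes. The part of those cells in the Ccl28 values was not tested. The interaction of sex and genotype called 0 ligands, against 0.00394% of genes, with 1 at an unadjusted p under 0.05, against 12.6%, and its smallest p was that of Cxcl14 (-0.31, SE 0.10, edgeR adjusted p = 0.215).

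Cx3cl1 was the 1 ligand called in any of the 10 contrasts. In males it had 158, 162, 162, 169, 182 and 196 CPM with paclitaxel, against 136, 144, 145, 155, 160 and 163 CPM with vehicle. All 6 male paclitaxel cords lay above the vehicle mean, and the ranges touched only between 158 and 163 CPM. In females it had 143, 144, 167, 167 and 177 CPM with paclitaxel, against 161, 161, 168, 169, 173 and 180 CPM with vehicle. The 2 lowest female values were the 2 wild-type paclitaxel cords, and the knockout paclitaxel cords lay within the vehicle range.

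The interaction of sex and treatment, the response of males minus that of females, was 0.32 for Cx3cl1 (log2, SE 0.08, edgeR adjusted p = 0.0233), where 4.96% of all tested genes (1259) were called. This contrast cannot be told apart from the order of the library numbers. Without single libraries 248 to 2419 genes were called, fewest without wild-type female paclitaxel replicate 1 and most without knockout male vehicle replicate 1. At an unadjusted p under 0.05 there were 4 ligands in this contrast, against 20.3% of all genes, and 7 without wild-type male vehicle replicate 1, against 20.04%. Within males the log2 fold change was 0.20 (SE 0.05, edgeR adjusted p = 0.0268), with 6.69% of all genes called, and within females it was -0.12 (SE 0.06, edgeR adjusted p = 0.506), with 0.00394% called. Treatment within a sex cannot be told apart from the order of the library numbers either, and that order runs opposite ways in males and females. At an unadjusted p under 0.05 there were 2 ligands in males and 7 in females, against 20.9 and 9.37% of all genes; these 2 contrasts were added after seeing the data. Over the fits without single libraries these counts ran from 1 to 5 ligands in males and from 3 to 9 in females, and 357 to 2841 genes were called in males. The interaction was 0.32, 0.31 and 0.30 without wild-type female paclitaxel replicate 1, replicate 2 or wild-type female vehicle replicate 2, with edgeR adjusted p values of 0.0626, 0.0576 and 0.0504. With the ganglion-like library, whose Cx3cl1 was 8.95 CPM, it was 0.59 (SE 0.50, edgeR adjusted p = 0.656), and 0.0% of all genes were called. The call in males was lost without any 1 of 7 male cords, with log2 fold changes of 0.14 to 0.20 and edgeR adjusted p values of 0.0517 to 0.0976. Those cords were knockout paclitaxel replicates 1 and 3, knockout vehicle replicates 2 and 3, wild-type paclitaxel replicate 1 and wild-type vehicle replicates 1 and 2.

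Cell markers were also called in the same contrast, which follows the order of the library numbers. Of all tested genes, 4.96% were called in it and 49.3% had a positive sign. The lists with 0 called were 8 Schwann cell, 10 border macrophage and monocyte, 8 neutrophil, 8 meningeal fibroblast, 9 sensory ganglion and 5 blood genes. Of the 10 cord neuron genes, 9 had a positive interaction and 3 were called (Slc32a1 0.31, Rbfox3 0.22 and Gad1 0.40, log2), and Csf1r was called among 12 microglia genes (0.43), of which 8 were positive and 4 negative. All 8 endothelial and pericyte genes had a positive sign and Tek was called, as were Acta1 and Actn3 among 7 skeletal muscle genes, which were all positive. Cnp, Mag and Cldn11 were called among 8 oligodendrocyte genes, of which 4 were positive and 4 negative, and Aldh1l1 among 8 astrocyte genes, of which 6 were positive and 2 negative. The summed neuron genes spanned 5023 to 5321 CPM in male paclitaxel cords, 4878 to 5222 CPM in male vehicle cords, 5045 to 5145 CPM in female paclitaxel cords and 4809 to 5404 CPM in female vehicle cords. The part of these cells in the Cx3cl1 value was not tested.

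The receptor of Cx3cl1 was called in the same direction, in the same contrast that follows the order of the library numbers. Cx3cr1 averaged 41.9 ± 3.22 CPM in male paclitaxel cords and 37.3 ± 4.86 CPM in male vehicle cords (SD, n = 6 each). In females it averaged 38.4 ± 2.16 CPM with paclitaxel and 40.7 ± 1.62 CPM with vehicle (SD, n = 5 and 6). Its interaction was 0.28 (SE 0.08, edgeR adjusted p = 0.0323). Of the other ligands, Ccl27a had the next smallest p, with an interaction of -0.19 (SE 0.07, edgeR adjusted p = 0.0821), opposite in sign to Cx3cl1. Ccl27a averaged 27.4 ± 1.53 CPM with paclitaxel and 28.3 ± 1.21 CPM with vehicle in males, and 30.1 ± 1.23 CPM with paclitaxel and 26.9 ± 1.80 CPM with vehicle in females.

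**Figure D3:**
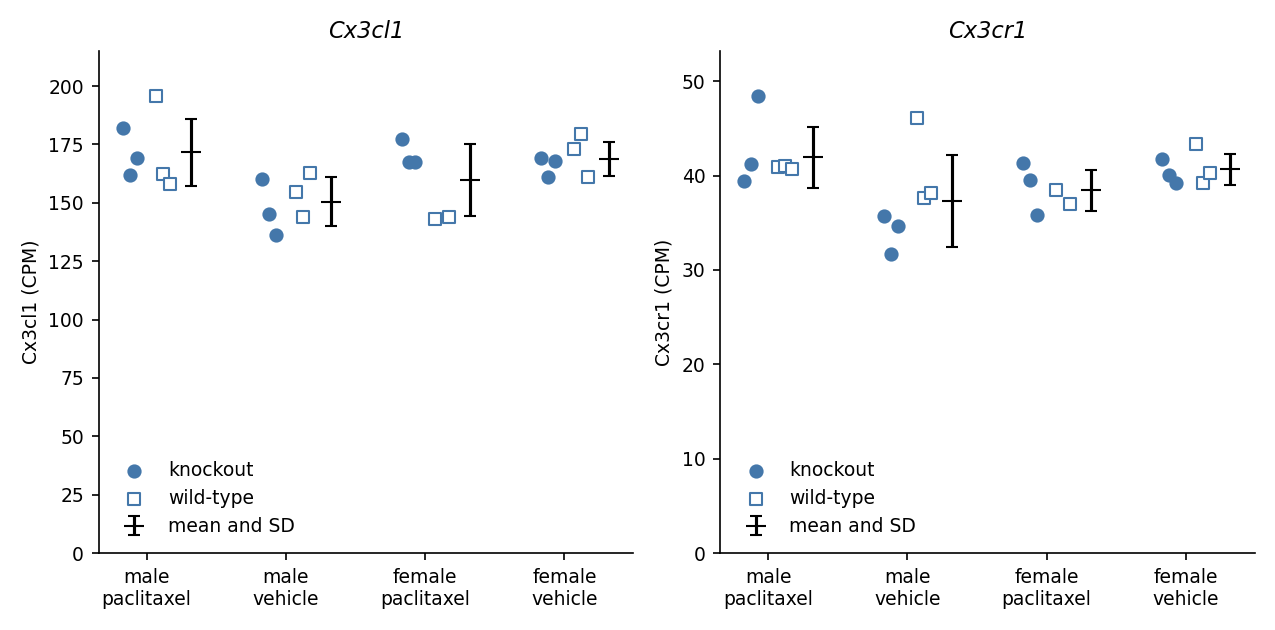
CPM of Cx3cl1 (left) and of its receptor Cx3cr1 (right) in each of 23 cords by sex and treatment, with filled circles for knockout, open squares for wild-type and black bars for the mean and SD over both genotypes. Male paclitaxel cords average 172 CPM of Cx3cl1 and male vehicle cords 151 CPM, while female paclitaxel cords average 160 CPM and female vehicle cords 169 CPM. Within each sex the treatments also follow the order of the library numbers.

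Within each genotype and sex, where 3 cords face 3 (2 face 3 in wild-type females), different ligands separated between the treatments. In each split the treatments also follow the order of the library numbers, so treatment and order cannot be told apart. These splits were looked at after seeing the data, over the 28 ligands with a median of at least 0.05 CPM, and carry no test. In knockout females, 8 of 28 ligands had every paclitaxel cord below every vehicle cord and none above, against 6.23 and 5.65% of 24427 genes. The 8 were Ccl2, Ccl5, Ccl7, Ccl11, Ccl28, Cxcl10, Cxcl14 and Cxcl16. Cxcl10 had 0.278, 0.263 and 0.315 CPM with paclitaxel, against 0.759, 1.73 and 1.17 CPM with vehicle, and Ccl2 had 0.267, 0.263 and 0.202 CPM with paclitaxel, against 0.391, 0.762 and 0.586 CPM with vehicle. In both, the vehicle cord at the top was replicate 2.

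In knockout males, 5 ligands lay above in every paclitaxel cord (Cxcl12, Cx3cl1, Ccl17, Ccl1 and Ccl3) and 1 below (Cxcl1), against 10.2 and 10.1% of genes. Cxcl12 had 74.1, 79.1 and 77.4 CPM with paclitaxel, against 62.6, 55.2 and 53.3 CPM with vehicle. In wild-type males, 0 ligands lay above and 0 below, against 7.09 and 9.07% of genes. In wild-type females, with 2 paclitaxel cords, 8 lay above and 5 below, against 22.2 and 12.6% of genes. Cx3cl1 was among the 5 below and among the 5 above in knockout males.

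Several induced ligands had their highest value in wild-type male vehicle replicate 1. Cxcl13 had 5.98 CPM (551 counts) there and 0 to 0.635 CPM in the other 22 cords. Cxcl10 had 4.86 CPM there, against 0.263 to 1.73 CPM, Ccl2 had 2.59 CPM, against 0.202 to 0.762 CPM, and Ccl12 had 4.01 CPM, against 0.304 to 1.36 CPM. Ccl5, Ccl7, Ccl4, Ccl8, Ccl9, Cxcl16 and Ccl6 were also highest there. In all, this cord was the highest of 23 in 11 of 28 ligands, against 4.42% of 24427 genes, and the abundant ligands were not among them: Cx3cl1 had 155 CPM and Cxcl14 49.2 CPM, inside the range of the others.

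Inducers, receptors and microglia genes summed to their highest value in the same cord. Irf7, an interferon-induced transcription factor, had 18.6 CPM there, 4.14 times the median of the others, and the cytokine gene Il1b had 1.06 CPM, 3.92 times. The 18 receptor genes summed to 67.5 CPM, against 45.3 to 63.1 CPM in the others, and 8 of them, among them Ccr2 at 3.23 CPM (2.41 times), lay above the median of the others. The 12 microglia genes summed to 411 CPM, against 302 to 383 CPM in the others, and the 5 blood genes to 898 CPM, against 146 to 1177 CPM. The 10 border macrophage and monocyte genes, at 66.3 CPM against 39.1 to 86.5 CPM, lay inside the range of the others. The 8 neutrophil genes summed to 8.61 CPM, against 2.24 to 56.5 CPM, and none of them lay above the median of the others. The part of these cells in the ligand values was not tested.

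Knockout female vehicle replicate 2 was the next cord of this kind. Set against the 21 cords other than these 2, it was above the range in 10 of 28 ligands, against 5.3% of 24427 genes, and below in none. Cxcl9 had 1.29 CPM there, against 0.021 to 0.405 CPM, Ccl5 had 1.08 CPM, against 0.045 to 0.523 CPM, and Cxcl13 had 0.635 CPM, against 0 to 0.492 CPM. Cxcl9 was higher in this cord than in wild-type male vehicle replicate 1 (0.434 CPM), while Cxcl13, Cxcl10 and Ccl2 were lower. Both cords are vehicle cords, 1 of each genotype.

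**Figure D4:**
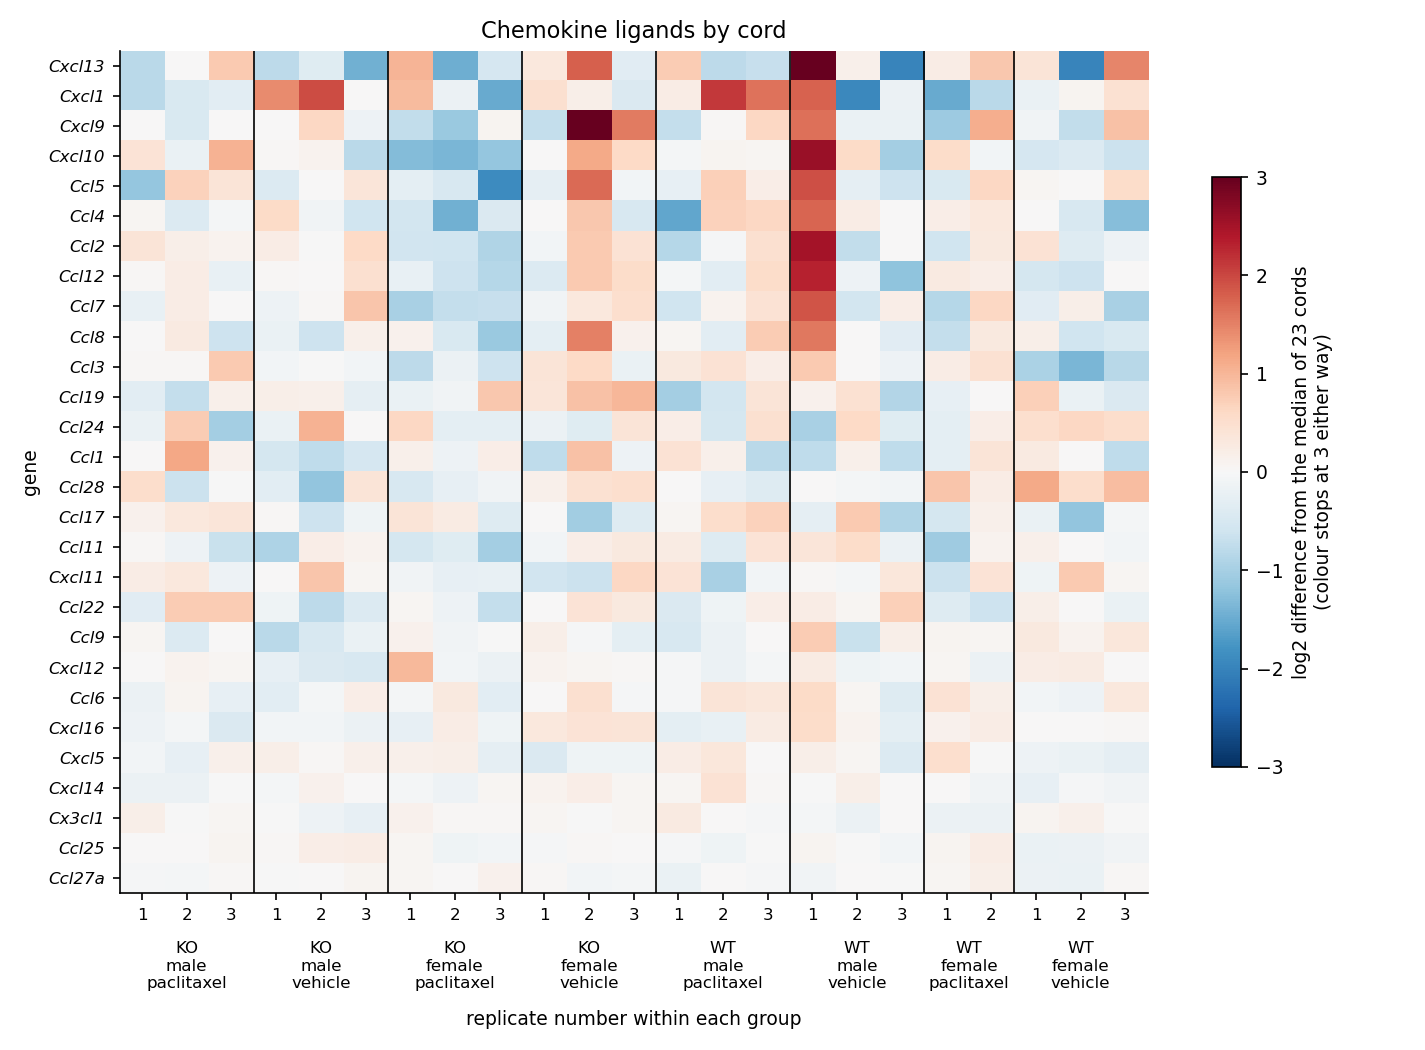
Log2 difference of each cord from the median of 23 cords (log2 of CPM plus 0.05) for the 28 ligands with a median of at least 0.05 CPM, ordered by spread, with cords by group and colours that stop at 3 either way. Wild-type male vehicle replicate 1 is the darkest red column, with Cxcl13 at 5.98 CPM, and the rows of Cx3cl1, Ccl25 and Ccl27a at the bottom are nearly white.

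Cxcl12 had 1 cord of its own. Knockout female paclitaxel replicate 1 had 145 CPM, against 53.3 to 88.5 CPM in the other 22 cords, and against the 21 cords other than wild-type male vehicle replicate 1 it was above the range in no other of the 28 ligands, where 4.83% of 24427 genes were above. In that cord the 8 endothelial and pericyte genes summed to 622 CPM, against 398 to 578 CPM, and the 10 border macrophage and monocyte genes to 86.5 CPM, against 39.1 to 71.8 CPM. The 5 blood genes summed to 894 CPM, rank 3 of 23 from the top, against 146 to 1177 CPM and a median of 224 CPM in the others. The neutrophil genes summed to 48.6 CPM, second highest of 23, and Ackr1, Cxcr2 and Ppbp were highest there at 50.8, 0.662 and 1.58 CPM. The part of these cells in the Cxcl12 value was not tested. The interaction of sex and treatment for Cxcl12 was 0.16 (SE 0.22, edgeR adjusted p = 0.766) with this cord and 0.39 (SE 0.10, edgeR adjusted p = 0.0221) without it. That interaction cannot be told apart from the order of the library numbers. With this cord, 4.96% of all tested genes were called in it.

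Correlations over the 23 cords were computed for 10 pairs of ligands or of ligand and receptor, on log2 of CPM plus 0.05, with permutation p values adjusted over the 10. Ccl2 and Ccl7, neighbours on chromosome 11, had a Pearson r of 0.855 (adjusted permutation p = 0.0001, n = 23) and a Spearman rho of 0.774 (adjusted permutation p = 0.0009). The r was 0.729 without the 2 cords farthest from the median Ccl2. Ccl2 and Ccl12 had r = 0.781 and rho = 0.645 (adjusted permutation p = 0.0014 and 0.00535), and r = 0.462 without the 2 farthest cords. The smallest unadjusted p that the permutations can give is 1e-05.

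Ccl3 and Ccl4 had r = 0.498 and rho = 0.575 (adjusted permutation p = 0.0391 and 0.0165), and Cxcl9 and Cxcl10 had r = 0.546 and rho = 0.468 (adjusted permutation p = 0.0304 and 0.0418). For Cxcl9 and Cxcl10, r was 0.280 without knockout female vehicle replicate 2 and wild-type male vehicle replicate 1. Without wild-type male vehicle replicate 1 alone, r was 0.463 and rho 0.394. Ccl6 and Ccl9 had r = 0.299 (adjusted permutation p = 0.206) and Cxcl1 and Ccl2 had r = 0.415 (adjusted permutation p = 0.0681). Of the pairs of ligand and receptor, Cx3cl1 and Cx3cr1 had r = 0.468 and rho = 0.474 (adjusted permutation p = 0.0405 and 0.0418), and Cxcl12 and Ackr3 had r = 0.491 and rho = 0.476 (adjusted permutation p = 0.0391 and 0.0418). Without the 2 farthest cords r was 0.591 for Ccl3 and Ccl4, 0.404 for Cx3cl1 and Cx3cr1 and 0.446 for Cxcl12 and Ackr3. Cxcl12 and Cxcr4 had r = 0.190 and Cxcl16 and Cxcr6 r = 0.138 (adjusted permutation p = 0.432 and 0.53). The cords come from 8 groups, and the correlations pool them.

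**Figure D5:**
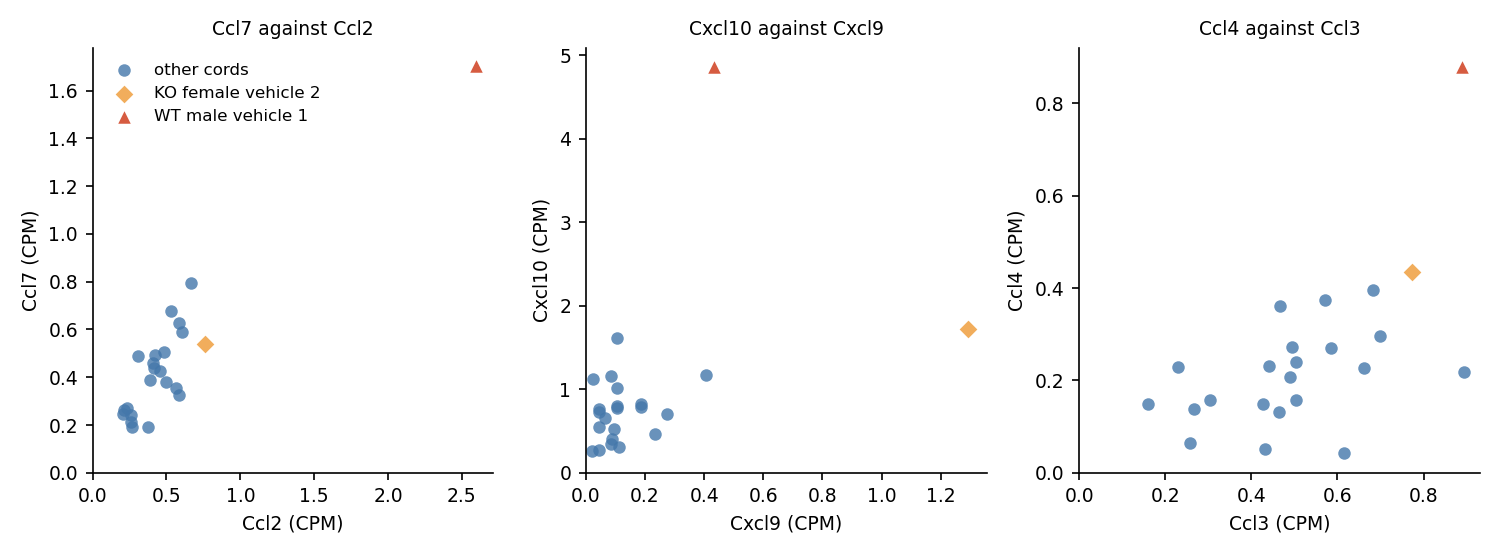
CPM of Ccl7 against Ccl2, of Cxcl10 against Cxcl9 and of Ccl4 against Ccl3 in 23 cords, each point 1 cord, on linear axes. The red triangle is wild-type male vehicle replicate 1 (Ccl2 at 2.59 CPM) and the orange diamond knockout female vehicle replicate 2 (Cxcl9 at 1.29 CPM); both lie away from the other cords in the middle plot.

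The ganglion-like library differed from the cords in 14 of the 36 ligands with a count, 7 above and 7 below the range of the 23 cords, against 39.9% of all genes with a count. Among the 11 ligands above 0.5 CPM in every cord, 8 lay outside the range, against 73.0% of all genes above the same minimum. It is 1 library, so no test was made. Cx3cl1 had 8.95 CPM there, against 136 to 196 CPM, and Cxcl14 had 2.16 CPM, against 41.9 to 67.5 CPM. Cxcl12 had 42.9 CPM, against 53.3 to 145 CPM, and Ccl27a, Ccl25, Ccl6 and Cxcl5 were also below the range. The log2 ratios to the cord median were -4.50 for Cxcl14, -4.17 for Cx3cl1, -1.39 for Cxcl5, -1.12 for Ccl3 and -1.10 for Ccl6, each after adding 0.05 CPM, with Ccl3 inside the range.

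On the same scale, the log2 ratios were 3.34 for Ccl2, 3.08 for Ccl11, 2.47 for Ccl7, 2.45 for Cxcl10 and 2.41 for Cxcl11. Ccl11 had 10.5 CPM there, against 0.540 to 1.77 CPM in the cords, and Ccl2 had 4.72 CPM, against 0.202 to 2.59 CPM. Ccl7 had 2.59 CPM, against 0.192 to 1.70 CPM, and Cxcl11, an interferon-induced ligand of Cxcr3, had 2.13 CPM, against 0.160 to 0.676 CPM. Ccl21a, a ligand of Ccr7, had 0.369 CPM (35 counts), against at most 0.0434 CPM (4 counts) and 0 in 17 cords, and Ccl1 and Ccl26 were also above. Cxcl10, at 4.38 CPM, exceeded every cord except wild-type male vehicle replicate 1. The receptors Ccr2 and Cxcr4 had 5.97 and 12.8 CPM there, against 0.719 to 3.23 and 1.92 to 3.54 CPM, while Cx3cr1 had 5.56 CPM, against 31.7 to 48.4 CPM. The 8 meningeal fibroblast genes summed to 931 CPM there, against 145 to 252 CPM, and the 12 microglia genes to 103 CPM, against 302 to 411 CPM; their part in the ligand values was not tested.

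The receptors of these ligands were mostly scarce in the cord. Of 18 chemokine receptor genes, 6 lay above 0.5 CPM in every cord, among them Cx3cr1 (31.7 to 48.4 CPM), Cxcr4 (1.92 to 3.54), Ccr2 (0.719 to 3.23), Ccr10 (0.880 to 1.77) and Ccr1 (0.512 to 1.87). The receptors of Ccl11, Cxcl5 and Cxcl16 did not: Ccr3 had at most 0.107 CPM, Cxcr2 at most 0.662 CPM and Cxcr6 at most 0.646 CPM. Ccr9, the receptor of Ccl25, had 0.260 to 0.839 CPM. Of 6 atypical receptors, which bind ligands without G protein signalling or are related to such receptors, Ackr1 (27.01 to 50.8 CPM), Ackr3 (7.50 to 13.3 CPM), Gpr182 (1.28 to 2.80 CPM) and Ccrl2 (0.572 to 1.86 CPM) passed. The proteases that shed Cx3cl1 and Cxcl16 were abundant, with a median of 125 CPM for Adam10 and 34.7 CPM for Adam17.

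These partner genes were called in few contrasts. For paclitaxel against vehicle and for knockout against wild-type, 0.0197 and 0.0118% of all tested genes were called. In both, the calls were 0 of 13 tested receptors and 0 of 6 atypical receptors. Of 5 processing enzymes and 17 inducers such as Nfkb1 and Irf1, 0 were called. For the interaction of sex and treatment, where 4.96% of all tested genes were called, Cx3cr1 and Ccrl2 were called. Ccrl2 had 0.89 (SE 0.25, edgeR adjusted p = 0.0349). Ccrl2, which binds chemerin, averaged 1.39 ± 0.256 CPM in male paclitaxel cords and 0.838 ± 0.201 CPM in male vehicle cords (SD, n = 6 each), and 1.21 ± 0.234 CPM in female paclitaxel cords and 1.30 ± 0.286 CPM in female vehicle cords (SD, n = 5 and 6). In males alone, paclitaxel against vehicle also called Mmp9, a matrix protease that cleaves chemokines, at 0.29 (SE 0.08, edgeR adjusted p = 0.0209). Of all tested genes, 6.69% were called in males. The interaction and the contrast in males cannot be told apart from the order of the library numbers.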

How the data were processed

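RNA-seq counts of 24 mouse spinal cord libraries were used. The labels number 3 replicates a group without naming animals, so p-values measure the spread between these libraries. The authors deposited whole-number counts per gene name; reads were aligned with STAR (version not given in the sources used here), per the submitters' processing notes, and counted with featureCounts 1.6.2 over exons of Ensembl release 96 (GRCm38), without strand and without a read-pair option, per the file headers. Counts of 1 to 20 were odd in 34.4 to 37.3% of cases, so mates were apparently counted singly and totals exceed the molecules. Levels here are CPM from library totals, without TMM factors. Differences came from edgeR 4.0.16 quasi-likelihood tests (R 4.3.3; filterByExpr over the 8 groups, TMM, robust dispersion) on 23 libraries, with Benjamini-Hochberg adjustment over 25372 tested genes and a threshold of 0.05. The third wild-type female paclitaxel library was left out of the main fit and entered an alternative. DESeq2 1.42.0, limma 3.58.1 voom, other scaling, no filter, the replicate block and leaving out each library were the other alternatives. Single values carry counting error, and with 3 libraries a group the spread between them limits precision.

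Named were ligands above 0.5 CPM in every cord, any ligand called, the smallest p of each contrast, the 5 highest and 5 lowest ratios of the ganglion-like library, and 9 known ligands; in the values given for single cords or splits, further ligands were chosen after seeing them. The members and lists were chosen with earlier results of these data known. The scripts were tested on simulated data.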

Additional observations from a re-analysis of the deposited data

Results flagged for a closer look

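Gaps within the 4 groups of genotype and treatment were examined for tested ligands wherever a cord of the group exceeded 0.5 CPM, in 88 cases. In 16 (18.2%) the highest cord was farther from the next than Dixon's 95% critical value allows. Some ligands entered only through their highest cord, the others being under 0.5 CPM, and the sexes were pooled. No chance rate can therefore be set against this share. Of the 16, 9 were wild-type male vehicle replicate 1, with 0.868 CPM of Cxcl1, 4.86 of Cxcl10, 5.98 of Cxcl13, 2.59 of Ccl2, 1.70 of Ccl7, 4.01 of Ccl12, 0.846 of Ccl8, 1.28 of Ccl5 and 0.879 of Ccl4. Another 4 were knockout female vehicle replicate 2, with 1.29 CPM of Cxcl9, 0.635 of Cxcl13, 0.805 of Ccl8 and 1.08 of Ccl5. The remaining 3 were Cxcl12 at 145 CPM in knockout female paclitaxel replicate 1, Cxcl10 at 1.13 CPM in wild-type female paclitaxel replicate 1 and Cxcl14 at 67.5 CPM in wild-type male paclitaxel replicate 2. For Cx3cl1 the paclitaxel responses of males and females differed by 0.32 (log2, edgeR adjusted p = 0.0233), from the test of the interaction itself. That interaction cannot be told apart from the order of the library numbers.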

How the results depend on the processing

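Each count of called ligands was recomputed under the alternatives. Without the filter on low counts the fit called 4 ligands for paclitaxel against vehicle, 2 in wild-type and 4 in knockout, 2 for knockout against wild-type, 3 under vehicle and 1 under paclitaxel, 3 for the interaction of genotype and treatment, 5 for males against females, 2 for the interaction of sex and treatment and 5 for that of sex and genotype. In the same order, that fit called 338, 254, 470, 99, 111, 215, 366, 749, 2181 and 813 of all 41809 genes. With the filter, all genes called for the interaction of genotype and treatment were 0. The cause was not tested. The interaction of sex and treatment called 0 ligands with all 24 libraries, 3 with DESeq2 (Cx3cl1, Ccl25 and Ccl27a) and 2 with the replicate block, and 0 to 2 without single libraries; males against females called 0 to 1 without single libraries. For the interaction of sex and treatment, DESeq2 called 2376 and the replicate block 1891 of all 25372 genes. No other alternative called a ligand in the other contrasts. The labels do not say whether the replicate numbers pair the mice. Same-numbered libraries of different groups had deviations with r from -0.310 to 0.358, and 22 of 77 pairs exceeded 0.1. The median r was 0.026 for these pairs and -0.019 for pairs with different numbers. Such a spread cannot decide whether mice were paired. Of 39 fold changes of single ligands, 11 changed sign somewhere. With all 24 libraries paclitaxel against vehicle gave -0.10 for Cx3cl1, -0.03 for Ccl25, -0.05 for Ccl6 and 0.19 for Ccl11, and knockout against wild-type gave 0.12 for Cxcl14 and 0.00 for Cxcl5; voom gave -0.01 for Cxcl12 between genotypes and 0.20 for Cxcl13 with paclitaxel. Leaving out single libraries gave, for paclitaxel against vehicle, -0.03 to 0.13 for Cxcl12, -0.02 to 0.10 for Ccl6, -0.13 to 0.05 for Ccl9, -0.50 to 0.05 for Ccl12 and -1.24 to 0.28 for Cxcl13, and for knockout against wild-type -0.11 to 0.05 for Cxcl12 and -0.05 to 0.02 for Cxcl14. Without a wild-type female paclitaxel replicate that group has 1 cord, taken to vary like the others. The count above 0.5 CPM in every cord stayed at 11 without single libraries and was 14 above 0.25 CPM, 9 above 1 CPM and 10 with all 24 libraries, and that of ligands outside the range in the ganglion-like library was 14 to 17.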
